A study of Sus scrofa with 6 samples.

Results

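The genes of major histocompatibility complex (MHC) class II presentation were followed in brain messenger RNA of Rongchang pigs and wild boars. Of 10 genes listed by name, 7 had a row in the table of 18225 genes: HLA-DRA (ENSSSCG00000001453), SLA-DQB1 (ENSSSCG00000001457), SLA-DMA (ENSSSCG00000001470), SLA-DMB (ENSSSCG00000001469), CIITA (ENSSSCG00000007901), LGMN (ENSSSCG00000002452) and CTSH (ENSSSCG00000001770). No identifier in the table was matched to SLA-DQA1, SLA-DRB1 or CD74, and these 3 genes were not analysed here. SLA is the pig name of the complex, and the alpha chain of the DR molecule carries its human name here. Each symbol stood on 1 identifier. The libraries came from 3 animals of the Rongchang breed, a domesticated Chinese pig, and 3 wild boars, 1 library per animal, all aged 210 days. The labels give neither the region of the brain nor any treatment or genotype, and nothing on whether an animal was kept wild or in captivity. The title of the series poses the immune response of domesticated pigs and wild boars as its question.

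Class II molecules are pairs of an alpha and a beta chain that show peptides from engulfed material to CD4 T cells. New chains are held by the invariant chain, endosomal proteases trim that chain to a short remnant, and the DM molecule exchanges the remnant for an antigen peptide. Transcription of the chains, of the invariant chain and of DM depends on the coactivator CIITA, which interferon-gamma induces. In the healthy brain, class II is carried mainly by macrophages of the vessels, meninges and choroid plexus, and by microglia at low levels that rise on activation.

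Values are FPKM, fragments counted per kilobase of a transcript and scaled to each library's mapped total, so that levels of different genes can be compared per length. Sequencing depth is unknown for such values. The libraries held 16510 to 17090 genes above 0. Neuron markers summed to 1866 to 2697 FPKM per library, and the neuronal vesicle fusion gene SNAP25 stood at 786 to 1156 FPKM. Mitochondrially encoded messenger RNAs made up 39.9% to 45.2% of all FPKM in Rongchang 1 and 2 and 41.0% to 46.8% in the wild boars, and 30.0% in Rongchang 3, the library with the highest class II levels. The part of that difference in the class II values was not tested, but the differences below are also given after each library was scaled to the same median.

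HLA-DRA, which encodes the alpha chain of DR, was the most abundant member in each of the 6 libraries. It stood at 35.4, 21.4 and 101.8 FPKM in Rongchang 1, 2 and 3 and at 35.5, 12.9 and 24.6 FPKM in wild boar 1, 2 and 3. The level in Rongchang 3 was far above the other 5, and the remaining Rongchang values lay inside the range of the wild boars. The means were 52.9 ± 43.0 FPKM in Rongchang and 24.3 ± 11.3 FPKM in wild boar (SD, n = 3 each).

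SLA-DQB1, the beta chain of the DQ molecule, stood at 15.1, 6.68 and 26.2 FPKM in Rongchang 1, 2 and 3 and at 13.4, 2.68 and 7.19 FPKM in wild boar 1, 2 and 3. Its highest library was again Rongchang 3 and its lowest wild boar 2, and the breeds overlapped. The span from the lowest to the highest library was 9.77-fold for SLA-DQB1 and 7.88-fold for HLA-DRA, where the median gene tested spanned 1.69-fold. Pig DQ genes are polymorphic and have near-identical copies, and reads that match an allele or copy poorly can be lost or split among rows, so the SLA-DQB1 level is uncertain.

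The DM molecule kept the order of the animals within each breed. Its alpha chain SLA-DMA stood at 6.96, 4.62 and 12.2 FPKM in Rongchang 1, 2 and 3 and at 8.58, 3.68 and 3.71 FPKM in wild boar 1, 2 and 3. Its beta chain SLA-DMB stood at 10.8, 7.54 and 18.8 FPKM in Rongchang 1, 2 and 3 and at 13.7, 4.65 and 9.78 FPKM in the wild boars. In both chains Rongchang 3 was highest, wild boar 1 was second and wild boar 2 was lowest, and the breeds overlapped. The spans were 3.32-fold for SLA-DMA and 4.03-fold for SLA-DMB.

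CIITA, the coactivator, was under 1 FPKM in every library. It stood at 0.512, 0.229 and 0.817 FPKM in Rongchang 1, 2 and 3 and at 0.232, 0.264 and 0.164 FPKM in wild boar 1, 2 and 3. Rongchang 3 was highest and wild boar 3 lowest, and Rongchang 2 lay within the wild boar range. It failed the filter on low values and is not among the genes tested across the table. An exact permutation test of its FPKM between breeds gave p = 0.3 (two-sided; 0.1 is the lowest p possible with 3 animals on each side).

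The proteases differed from each other. LGMN departed from the order of the chains in Rongchang, while CTSH kept their order in both breeds with a smaller span. LGMN, the asparagine endopeptidase of endosomes, stood at 11.6, 10.2 and 8.97 FPKM in Rongchang 1, 2 and 3 and at 9.09, 6.60 and 8.35 FPKM in wild boar 1, 2 and 3. Here Rongchang 3 was the lowest of its breed, the breeds overlapped only between Rongchang 3 and wild boar 1, and the span over libraries was 1.77-fold, close to that of the median gene. CTSH, an aminopeptidase of lysosomes, stood at 2.31, 1.69 and 3.27 FPKM in Rongchang 1, 2 and 3 and at 1.98, 1.36 and 1.66 FPKM in the wild boars, with the order of the class II chains within each breed and a span of 2.41-fold.

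**Figure D1:**
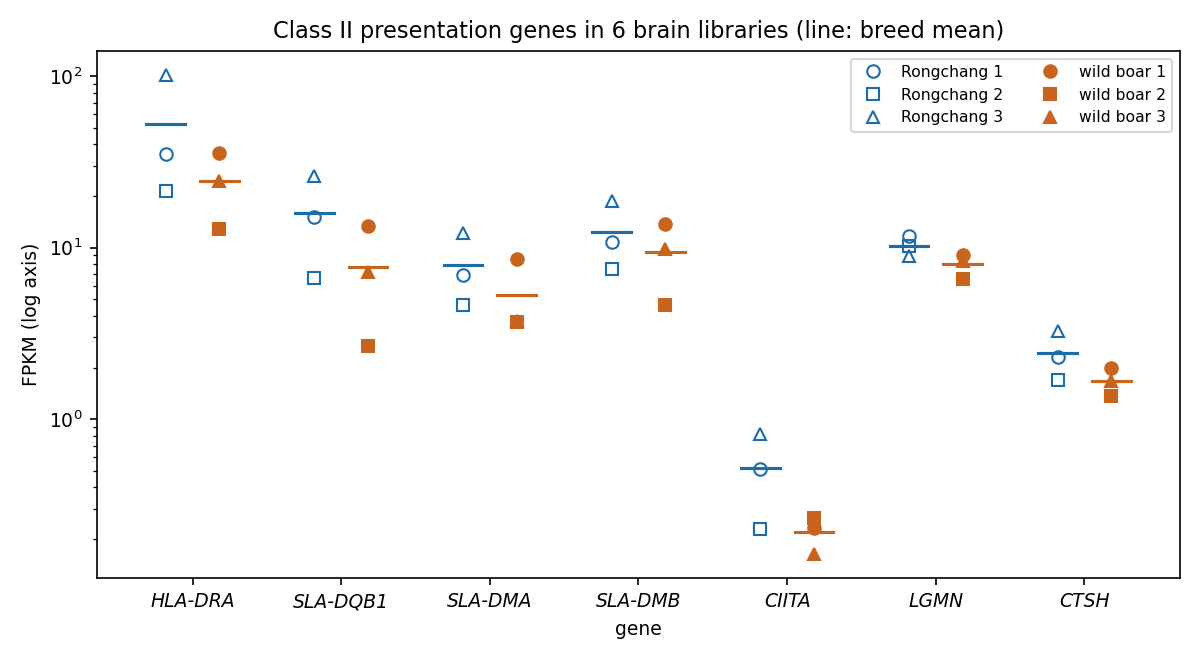
FPKM (log axis) of the 7 class II presentation genes with a row, with open symbols for Rongchang, filled symbols for wild boar, the animal number as the symbol shape and a line at each breed mean. HLA-DRA runs from 12.9 FPKM in wild boar 2 to 101.8 in Rongchang 3, while LGMN stays between 6.60 and 11.6, and CIITA lies under 1 FPKM in every library.

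The rank of the genes therefore depended on the animal. In Rongchang 3 the second most abundant member was SLA-DQB1 at 26.2 FPKM and LGMN stood at 8.97, while in wild boar 2 LGMN was second at 6.60 FPKM and SLA-DQB1 stood at 2.68. The ratio of HLA-DRA to LGMN was accordingly 11.3 in Rongchang 3 and 1.96 to 3.91 in the other 5 libraries. The chains kept a narrower ratio to one another. HLA-DRA was 2.35 to 4.81 times SLA-DQB1 over the 6 libraries, and SLA-DMB was 1.26 to 2.63 times SLA-DMA, with 5 of the 6 libraries between 1.26 and 1.63 and wild boar 3 at 2.63. Of 8 ratios between single genes compared between breeds, HLA-DRA to SLA-DMB was 2.84 to 5.42 in Rongchang and 2.51 to 2.78 in wild boar, without overlap (p = 0.1 in a two-sided exact permutation test, the smallest possible, and 0.4 adjusted over the 8 ratios).

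The class II genes varied together from animal to animal within each breed. HLA-DRA, SLA-DQB1, SLA-DMA, SLA-DMB, CIITA and CTSH all had the order Rongchang 3, 1, 2 from high to low, which LGMN did not share. HLA-DRA, SLA-DQB1, SLA-DMA, SLA-DMB, LGMN and CTSH all had the order wild boar 1, 3, 2, which CIITA did not share, though SLA-DMA was nearly equal in wild boar 3 and 2. HLA-DRA, SLA-DQB1, SLA-DMA, SLA-DMB and CTSH, 5 of the 6 members tested, were highest in Rongchang 3 and lowest in wild boar 2, as were 12.6% of all genes tested. Both orders held in the same 5 members, and in 5.35% of all 13152 genes. Each order by itself held in 24.0% and 13.7% of genes.

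**Figure D2:**
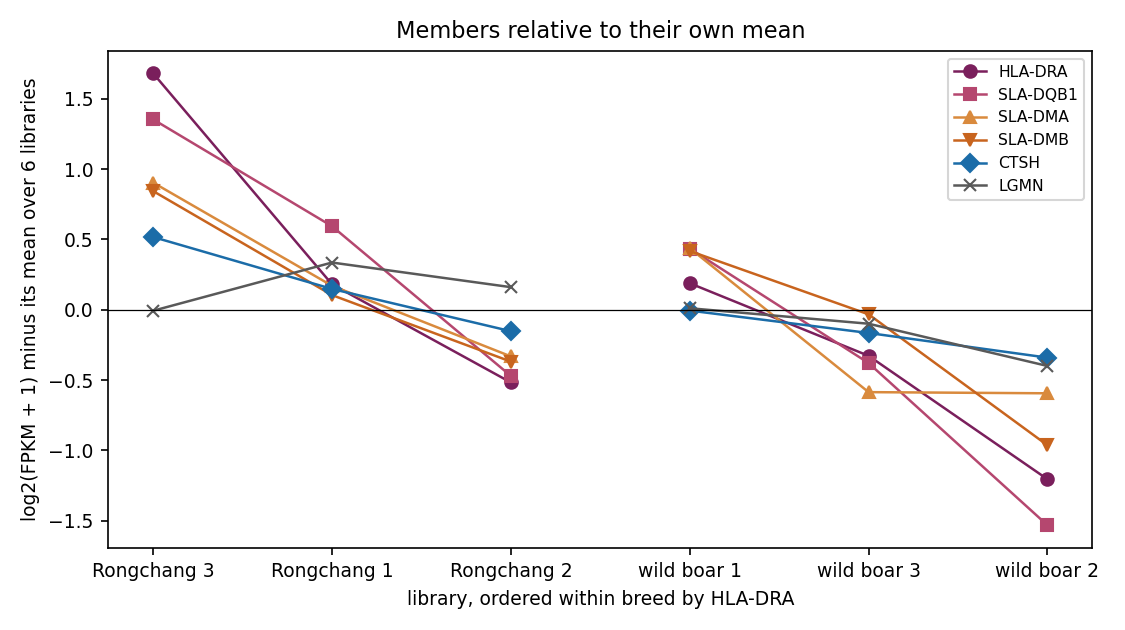
Log2(FPKM + 1) of 6 members in each library minus the gene's mean over the 6 libraries, with the libraries of each breed arranged by HLA-DRA and a line per gene and breed. HLA-DRA, SLA-DQB1, SLA-DMA, SLA-DMB and CTSH descend from Rongchang 3 to 2 and from wild boar 1 to 2, while LGMN is lowest in Rongchang 3 among the Rongchang libraries.

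Correlations over the 6 libraries were computed for all 21 pairs of the 7 members on the log2(FPKM + 1) scale, and p-values come from exact permutation tests adjusted over the 21 pairs. The 6 pairs among HLA-DRA, SLA-DQB1, SLA-DMA and SLA-DMB had Pearson r of 0.88 to 0.96, with adjusted p from 0.0292 to 0.0424, and Spearman rho of 0.89 to 1.0. HLA-DRA with SLA-DQB1 gave r = 0.95 and rho = 0.94 (exact permutation p = 0.00833 and 0.0167, adjusted p = 0.0292 and 0.05), and r = 0.98 without Rongchang 3 and wild boar 2, the libraries farthest from the median of HLA-DRA. HLA-DRA with CTSH gave the highest r of all pairs, 0.98, with rho = 0.89 (exact permutation p = 0.00556 and 0.0333, adjusted p = 0.0292 and 0.07), and r = 0.87 without the same libraries.

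By Pearson r, 11 of the 21 pairs passed, and by Spearman rho 0 did, with 0.05 as the lowest adjusted p. The 11 included all 6 pairs of the chains, CTSH with each of the 4 chains, and CIITA with CTSH. Leaving out the 2 libraries farthest from the median of the first gene left the pairs among the 4 chains at r of 0.60 to 0.98. CIITA with CTSH went from r = 0.90 to −0.32 and rests on Rongchang 1 and 3. SLA-DMB with CTSH went from r = 0.89 to 0.56. These tests treat the 6 libraries as interchangeable, which the breeds and the shared animal numbers described below put in doubt.

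LGMN stood apart from the other members over the 6 libraries. Its 6 pairs had r of 0.29 to 0.61 with adjusted p from 0.239 to 0.542 (exact permutation tests), and rho of 0.14 to 0.60. This depended on the libraries kept. Without the 2 libraries farthest from the median of the first gene, its pairs had r of −0.32 to 0.87, with a median of 0.08. The highest was SLA-DMA with LGMN, which went from r = 0.395 to 0.87 without Rongchang 3 and wild boar 1. After each breed's mean was removed, the pairs among the 4 chains had r of 0.87 to 0.99 and the pairs with LGMN had r of −0.37 to 0.39, given as a description. The correlation of CIITA with HLA-DRA was r = 0.82 and rho = 0.49 (exact permutation p = 0.0472 and 0.356, adjusted p = 0.0826 and 0.439), and r = 0.60 without Rongchang 3 and wild boar 2.

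Class II chains were also among the most variable genes within a breed. The pooled SD within breeds on the log2(FPKM + 1) scale was 0.94 for HLA-DRA and 0.95 for SLA-DQB1, larger than in 99.0% of the genes tested for both. It was 0.61 for SLA-DMA and 0.66 for SLA-DMB, larger than in 96.1% and 97.0% of genes. CTSH at 0.27 (60.7%) and LGMN at 0.19 (36.9%) lay nearer to the median gene at 0.23.

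Between the breeds, the mean of each of the 6 members tested was lower in wild boar, and no difference passed. In bulk tissue, fewer cells of a type and less RNA per cell cannot be told apart. The difference, wild boar minus Rongchang, is given as a log2 fold change of FPKM + 1 with limma's standard error and 95% interval. The largest were −0.98 for SLA-DQB1 (SE 0.56, interval −2.28 to 0.31, adjusted p = 0.794) and −0.90 for HLA-DRA (SE 0.56, interval −2.18 to 0.39, adjusted p = 0.815). SLA-DMA was at −0.49 (interval −1.35 to 0.36) and SLA-DMB at −0.39 (interval −1.31 to 0.54). The proteases CTSH at −0.34 (interval −0.81 to 0.12) and LGMN at −0.33 (interval −0.72 to 0.07) had smaller values with narrower intervals. Adjusted p over all 13152 genes ran from 0.789 to 0.868 for the 6 members.

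The count of members called was 0 of 6 in limma, where 0.00760% of all genes tested were called lower (1 gene), and 0 of 6 had an unadjusted p under 0.05, against 5.42% of all genes that did so as lower. None of the 6 had breeds that did not overlap, a separation found in 12.5% of all genes and, as lower in wild boar, in 11.4%. All 6 lay below 0, as did 77.9% of all genes, and all 6 lay below the median gene, as 50.0% of genes do by definition. The members' median was −0.44 and that of all genes −0.13. After median scaling the members' median was −0.29 with all genes at 0.02, and the fold changes were −0.73 for HLA-DRA, −0.82 for SLA-DQB1, −0.34 for SLA-DMA, −0.23 for SLA-DMB, −0.22 for CTSH and −0.17 for LGMN.

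**Figure D3:**
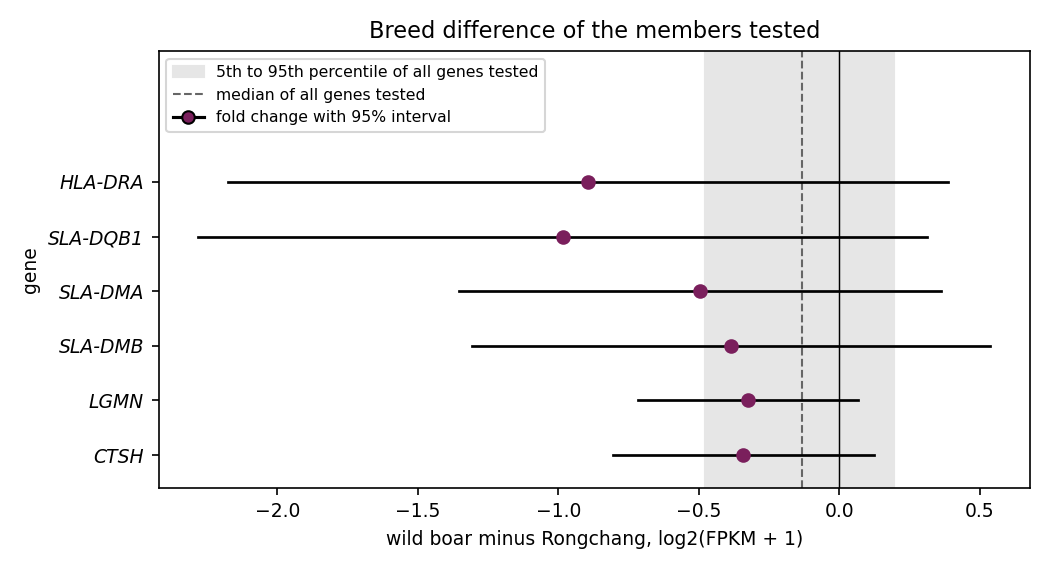
Fold change of the 6 members tested (points, with 95% intervals from limma) in log2(FPKM + 1), wild boar minus Rongchang, over a grey band from the 5th to the 95th percentile of all genes tested and a dashed line at their median of −0.13. All 6 points lie left of the median line and all 6 intervals include 0.

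Each breed has animals 1 to 3, and libraries that share a number deviated together across genes. Compared number by number, wild boar 1 and Rongchang 1 were nearly equal in HLA-DRA, with a ratio of 1.01, and wild boar 1 was higher in SLA-DMA (1.23) and SLA-DMB (1.26). In wild boar 2 the ratio to Rongchang 2 was 0.603 for HLA-DRA, 0.401 for SLA-DQB1, 0.798 for SLA-DMA and 0.618 for SLA-DMB. In wild boar 3 the ratio to Rongchang 3 was 0.241, 0.274, 0.303 and 0.521 for the same genes. SLA-DQB1, CTSH and LGMN were lower in the wild boar of all 3 numbers, as were 38.5% of all genes tested.

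With the animal number as a block, limma again called 0 of 6 members, with 1 gene called in the whole table (0.00760%). At an unadjusted p under 0.05, 3 of the 6 members then stood lower, where 0 did without the block, and 16.0% of all genes did so with it. The 3 were SLA-DQB1 (adjusted p = 0.234), LGMN (0.276) and HLA-DRA (0.280), with the same fold changes. With the block after median scaling, 1 of the 6 stood lower at an unadjusted p under 0.05, SLA-DQB1 (adjusted p = 0.449), where 5.02% of all genes did so.

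The size of the class II differences rested on single animals. Without Rongchang 3, HLA-DRA had a fold change of −0.28, SLA-DQB1 of −0.55, SLA-DMA of −0.17 and SLA-DMB of −0.06. Without wild boar 2 the values were −0.52, −0.46, −0.32 and −0.0006. Without Rongchang 2 they were −1.38, −1.47, −0.78 and −0.67, and without wild boar 1 they were −1.21, −1.45, −0.84 and −0.69. Without wild boar 3, SLA-DMA moved to −0.33. CTSH ran from −0.50 without Rongchang 2 to −0.17 without Rongchang 3. LGMN ran from −0.41 to −0.21, the latter without wild boar 2. In limma, 0 of the 6 members was called with any 1 library left out, with 3 at an unadjusted p under 0.05 without Rongchang 2, 2 without wild boar 1 and 0 without each of the other 4.

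**Figure D4:**
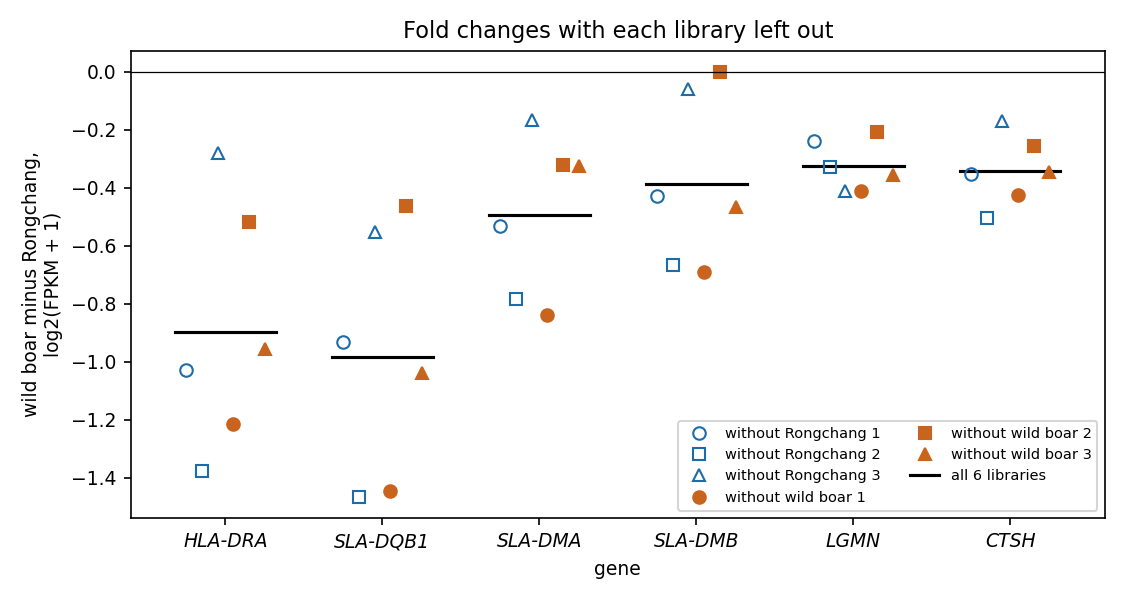
Fold change of each member tested on the log2(FPKM + 1) scale, wild boar minus Rongchang, with all 6 libraries (black line) and with each library left out in turn (symbols). HLA-DRA runs from −1.38 without Rongchang 2 to −0.28 without Rongchang 3, and LGMN stays between −0.41 and −0.21.

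Class II is a product of few cell types in brain, and the marker lists of those cells were set beside the chains. The 4 chains HLA-DRA, SLA-DQB1, SLA-DMA and SLA-DMB summed to 68.2, 40.3 and 159 FPKM in Rongchang 1, 2 and 3 and to 71.2, 23.9 and 45.2 FPKM in wild boar 1, 2 and 3. The 14 microglia markers with a row, of 20 listed, summed to 208, 143 and 217 FPKM and to 238, 117 and 193 FPKM in the same libraries, with no marker at 0 in any. Both sums were lowest in wild boar 2 and second lowest in Rongchang 2, an order at the low end that markers of other cells shared. The sums of the chains and of the microglia markers differed at the top, where Rongchang 3 exceeded wild boar 1 in the chains and lay below it in the microglia markers. The ratio of the chains' sum to the microglia sum was 0.733 in Rongchang 3 and 0.205 to 0.328 in the other 5 libraries. The part of microglial RNA in the class II levels was not tested.

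Astrocyte markers (6 of 8 with a row) summed to 2829, 2314 and 2659 FPKM in Rongchang 1, 2 and 3 and to 2923, 1971 and 2855 FPKM in wild boar 1, 2 and 3. Fibroblast markers (7 of 8) summed to 42.6, 32.8 and 44.5 FPKM and to 45.3, 31.1 and 35.9 FPKM in the same libraries. Erythroid markers (4 of 7, with HBM and SLC4A1 at 0 in some libraries) summed to 140, 68.5 and 192 FPKM and to 276, 58.5 and 214 FPKM. All 3 sums were lowest in wild boar 2, second lowest in Rongchang 2 and highest in wild boar 1. Oligodendrocyte markers (5 of 7) were also lowest in wild boar 2, at 1301 FPKM against 1665 to 2164 in the other libraries. Markers of endothelial cells and pericytes (8 of 12) were lowest in Rongchang 3, at 31.6 FPKM against 37.7 to 50.5. The part of these cells in the class II levels was not tested.

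Between the breeds, 8 of the 14 microglia markers lay above 0 and 6 below, with a median log2 fold change of 0.03 beside −0.13 for all genes, and 0 were called in limma (0 at an unadjusted p under 0.05). CX3CR1, the fractalkine receptor, was at 0.16 and CD68, a lysosomal glycoprotein, at 0.26, while C1QA was at −0.25, CSF1R at −0.17 and P2RY12 at −0.38. Over the animals, these last 3 differed in pattern. C1QA, a complement subunit made by microglia and macrophages, stood at 30.5, 19.8 and 46.4 FPKM in Rongchang 1, 2 and 3 and at 33.6, 14.3 and 34.0 FPKM in wild boar 1, 2 and 3, and was thus also highest in Rongchang 3 and lowest in wild boar 2. The growth factor receptor CSF1R varied little, at 13.2, 9.36 and 11.5 FPKM in Rongchang and 12.01, 8.60 and 9.30 FPKM in wild boar. P2RY12, a receptor of resting microglia, was highest in Rongchang 1, at 26.0, 12.2 and 12.7 FPKM in Rongchang and 21.2, 7.37 and 10.8 FPKM in wild boar. HLA-DRA was 1.08 to 2.196 times C1QA in Rongchang and 0.722 to 1.06 times in wild boar (p = 0.1 in a two-sided exact permutation test, the smallest possible, and 0.4 adjusted over the 8 ratios).

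Border macrophage markers, of which 8 of 11 had a row and none stood at 0, summed to 12.8, 12.3 and 19.9 FPKM in Rongchang 1, 2 and 3 and to 14.4, 12.9985 and 16.8 FPKM in wild boar 1, 2 and 3. The sum was highest in Rongchang 3 here too, led by the folate receptor FOLR2 at 12.6 FPKM against 7.14 to 10.0 in the other libraries. F13A1, STAB1 and MS4A7 were also highest there, while CD209 was highest in wild boar 1, LYVE1 in wild boar 2, MRC1 in wild boar 3 and SIGLEC1 in Rongchang 1. Between the breeds, 2 of the 4 markers tested lay below 0 and 2 above, with a median log2 fold change of −0.02 beside −0.13 for all genes. In limma 0 of them were called. The defining B cell marker MS4A1 was low in all 6 libraries (0.0186 to 0.198 FPKM), and CD79B was listed at 0 in wild boar 2. The 6 B cell markers with a row, of 9 listed, summed to 3.64 to 5.80 FPKM in Rongchang and 2.07 to 4.05 FPKM in wild boar, with the adaptor BLNK as the main contributor. Of 8 dendritic cell markers 3 had a row, among which CCR7 and XCR1 stayed under 0.16 FPKM. Blood monocyte and neutrophil markers had 6 of 9 with a row, with ELANE and MPO at 0 in some libraries. They summed to 7.46, 5.32 and 12.6 FPKM in Rongchang 1, 2 and 3 and to 7.26, 6.70 and 9.87 FPKM in the wild boars. The highest sum, in Rongchang 3, held S100A8 at 4.92 FPKM against 0.305 to 2.44 in the other libraries, a gene below the filter on low values. ELANE and MPO were also highest in Rongchang 3, and CSF3R in Rongchang 1. The 2 markers tested were highest in wild boar, CD14 in wild boar 3 and LYZ in wild boar 1. Choroid plexus and ependyma markers (6 of 8, OTX2 and PRLR at 0 in some libraries) summed to 35.3 FPKM in wild boar 3, mostly TTR, against 1.35 to 4.24 in the other libraries. T and NK cell markers (9 of 12 with a row, none at 0) summed to 6.32 to 9.02 FPKM in Rongchang and 4.53 to 6.07 FPKM in wild boar. Of these, 4 were tested and all 4 lay below 0, with a median log2 fold change of −0.41 beside −0.13 for all genes. In limma 0 were called, with 1 at an unadjusted p under 0.05. In 2 of the 4 the breeds did not overlap, as in 12.5% of all genes. The part of these cells in the class II levels was not tested.

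**Figure D5:**
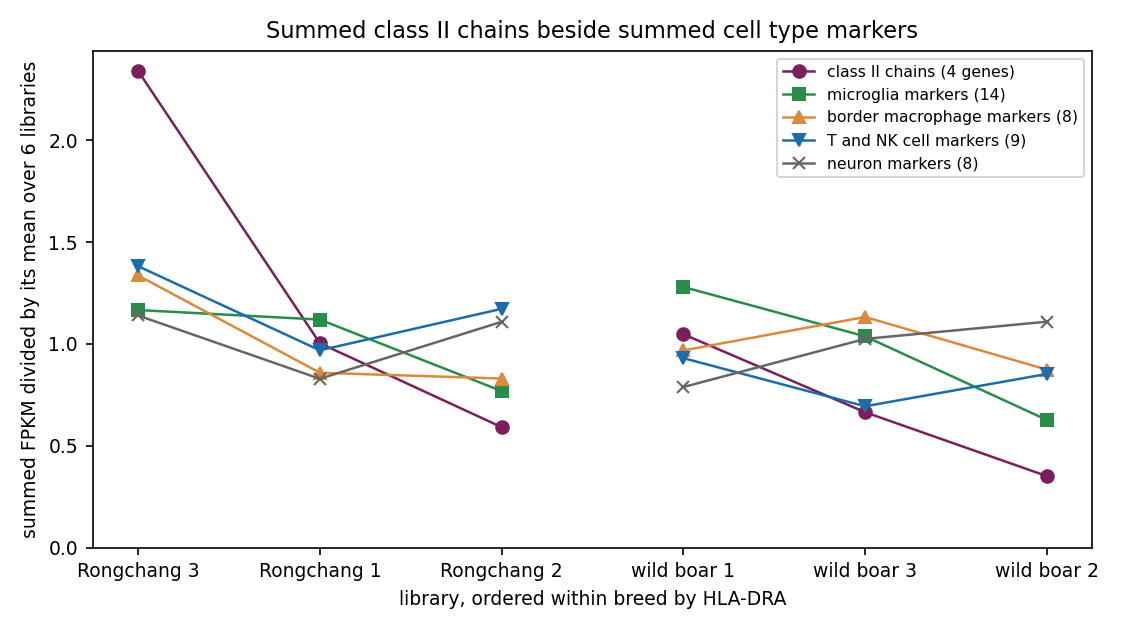
Summed FPKM of the 4 class II chains and of 4 cell type marker lists in each library, each divided by its mean over the 6 libraries, with the libraries of each breed arranged by HLA-DRA and the number of genes in parentheses. The chains reach their highest value in Rongchang 3 at 159 FPKM, where microglia markers stand at 217 FPKM, below the 238 FPKM of wild boar 1.

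The wider pathway was described from lists of genes, with 0 genes called in limma in every list. Of the other class II genes, SLA-DOA and HLA-DOB had a row. They encode the DO molecule, which restrains DM. SLA-DOA stood at 0.383, 0.354 and 1.48 FPKM in Rongchang 1, 2 and 3 and at 0.272, 0.126 and 0.160 FPKM in wild boar 1, 2 and 3, so that the breeds did not overlap (p = 0.1 in a two-sided exact permutation test, the smallest possible, and 0.3 adjusted over the 3 genes below the filter tested in this way). HLA-DOB at 0.179 to 0.480 FPKM in Rongchang and 0.218 to 0.725 in wild boar overlapped, with wild boar 1 highest. Both lay below the filter on low values.

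Upstream of CIITA, interferon-gamma signals through the receptor chain IFNGR1 and the kinases JAK1 and JAK2, and IRF1 is a transcription factor that it induces. Of 7 genes tested, 5 lay below 0 and 2 above, and the list's median was −0.05 beside −0.13 for all genes. IRF1 stood at 5.47, 3.89 and 6.95 FPKM in Rongchang and 4.86, 4.12 and 2.96 FPKM in wild boar (log2 fold change −0.36, limma adjusted p = 0.815), with Rongchang 3 highest as in the chains. IFNGR1 (−0.07) and JAK2 (0.07) differed little in mean.

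Among the factors that bind class II promoters, 3 were tested and all lay below 0 (median −0.17), with 0 at an unadjusted p under 0.05. NFYB, a subunit of the factor that binds the Y box, stood at 7.43, 4.84 and 8.83 FPKM in Rongchang 1, 2 and 3 and at 6.43, 4.07 and 5.81 FPKM in wild boar 1, 2 and 3 (log2 fold change −0.31, limma adjusted p = 0.848), in the same order within each breed as the chains. NFYC was at −0.17. RFX5, a subunit of the factor that binds the X box, was at −0.01 and was highest in wild boar 2 at 6.17 FPKM, the library with the lowest chains.

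Of 7 other processing enzymes tested, 5 lay below 0 and 2 above, with a median of −0.04 and 0 at an unadjusted p under 0.05. CTSS, the protease that trims the invariant chain in macrophages and microglia and that also stands in the microglia list, was at 14.0, 9.27 and 17.6 FPKM in Rongchang and 17.9, 8.89 and 16.7 FPKM in wild boar (log2 fold change 0.07, limma adjusted p = 0.963). CTSB, the most abundant enzyme of the list, stood at 90.8 to 127 FPKM (−0.13), with CTSZ at −0.15 and SPPL2A, which cleaves the last remnant of the invariant chain in the membrane, at −0.09. MARCHF8, a ligase that can mark class II for removal from the surface, stood at 7.03, 6.28 and 6.45 FPKM in Rongchang and 6.06, 5.88 and 5.06 FPKM in wild boar (−0.19, limma adjusted p = 0.848). Its breeds did not overlap, as in 11.4% of all genes tested in this direction, and its fold change lay near the −0.13 of the median gene.

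Genes most alike in pattern were ranked by Pearson r with the mean of the standardised log2(FPKM + 1) values of HLA-DRA and SLA-DQB1 over the 6 libraries, among 7507 genes with a symbol and a mean of at least 2 FPKM. The first 8 were DMAC1, DDX39B, GAMT, PTRH2, PRKCD, NNT, NAGK and PMM1, with r from 0.995 to 0.987, and all 8 were highest in Rongchang 3 and lowest in wild boar 2. Over 6 libraries, 325 genes (4.33%) reached r of at least 0.9, so that such a likeness was common, and the other members fell at different places. CTSH and SLA-DMB, both at r = 0.97, would have stood 29th and 46th, SLA-DMA (0.93) 172nd, CIITA (0.79) 1017th and LGMN (0.51) 2386th in the ranking. Likeness in order did not mean likeness in size. DMAC1, a mitochondrial assembly factor, went from 0.822 FPKM in wild boar 2 to 4.56 in Rongchang 3, and DDX39B, an RNA helicase, from 69.3 to 93.0 FPKM in the same libraries.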

How the data were processed

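Polyadenylated RNA of 6 brains was sequenced as 100-bp paired-end reads from dUTP-marked libraries, per the labels' protocols. The submitters' processing notes name TopHat2 2.0.11, Cufflinks 2.2.1 and Cuffdiff. Strand setting, genome build and annotation were not given in the sources used here. Coordinates are therefore left out. The authors deposited 1 FPKM value per gene and library. The unit was judged from these tools and the values. Depth could not be recovered from steps in low values (at most 23.7% of ratios fell in 1 window of 0.04 log2 units), so precision rests on the animals.

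Symbols were matched for 10937 of 18225 identifiers, taking the row with the highest mean per symbol. Breeds were compared with limma 3.58.1 (R 4.3.3), applied to log2(FPKM + 1), which understates changes of low genes. Genes entered if 3 or more libraries reached 1 FPKM, with a mean-variance trend and Benjamini-Hochberg adjustment over 13152 genes (threshold 0.05). The procedure was tested on 20 simulated tables with 200 changed genes each, with the spread of each gene taken from these data. It recovered 46.8% of 2-fold and 89% of 4-fold changes of FPKM + 1, with 5.8 false calls per table. A 2-fold change was thus missed more often than called, which limits what a count of 0 called can mean. Permutation tests and correlations used scipy 1.17.1. Alternatives covered pseudocount, filter, scaling, trend, left-out libraries and the animal number as a block. Nothing more is said of how the animals were sampled, and p-values reflect only the spread among these 6 libraries.

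Animals with the same number had deviations from the breed mean that correlated (0.28, 0.59 and 0.37), above the bound of 0.1 taken to mark pairs, from the data alone. Differently numbered pairs ranged from −0.45 to 0.12.

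The members and gene lists were chosen with earlier results of these data known. Every member with a row is named, as are up to 4 genes per pathway list by unadjusted p, the most abundant and most changed markers, and the 8 genes most alike in pattern. Other markers, the DO chains and region neighbours were named after their values were seen. Of the pathway and marker lists, 2 genes are not reported here.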

Additional observations from a re-analysis of the deposited data

How the results depend on the processing

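Over 16 alternatives all 95 fold changes of the 6 members kept their direction below 0, and 0 passed, with adjusted p of at least 0.234. The filters, the trend and the replicate block cannot alter a gene's fold change, only its p-value. Their directions were therefore fixed in advance, and the block after median scaling repeats the fold changes of median scaling. The pseudocounts, the 2 scalings and the left-out libraries are the alternatives that could move a fold change. CTSH had no value with a minimum mean of 5 FPKM. The members' median, −0.44 as reported, was −0.76 without wild boar 1, −0.73 without Rongchang 2, −0.29 without wild boar 2 and −0.22 without Rongchang 3, each a move of over 1.5 times, as were −0.29 after median scaling and −0.28 after quantile normalization. With the replicate block the members' median stays at −0.44 by construction, and genes called numbered 1 lower and 0 higher. Genes called lower numbered 1 in the comparison as reported, 3 with a pseudocount of 0.1, 0 with a minimum mean of 5 FPKM, 3 without both libraries numbered 2 (an alternative chosen after seeing the data), and 1 to 4 with 1 library left out. Genes called higher numbered 0 to 1 with 1 library left out. Member pairs past the threshold numbered 11 of 21 by Pearson r, 0 by Spearman rank correlation, 9 after median scaling, 10 of 15 after quantile normalization, which leaves out CIITA, and 0 with any 1 library left out, where 5 libraries remain. The lowest r among the 4 chains was then 0.78, without Rongchang 3. After removal of each number's mean the chains' r was at least 0.90, with no test because 3 differences remain.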

Other observations

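In the RefSeq annotation of Sscrofa11.1 (no build is named by the authors in the sources used here), SLA-DMB and SLA-DMA are adjacent and follow BRD2, and the stretch from SLA-DQB1 to SLA-DOA holds 12 protein-coding genes. Of those that are not class II genes, BRD2, TAP2 and PSMB9 had a row by symbol. BRD2, a chromatin reader, stood at 37.7, 42.9 and 38.6 FPKM in Rongchang 1, 2 and 3 and at 35.6, 53.5 and 39.3 FPKM in wild boar 1, 2 and 3, and was highest in wild boar 2, where the chains were lowest. TAP2, a subunit of the class I peptide transporter, stood at 0.0735 to 0.258 FPKM and was highest in Rongchang 1. PSMB9, an immunoproteasome subunit, stood at 0.144, 0 and 0.461 FPKM in Rongchang 1, 2 and 3 and at 0.283, 0.0776 and 0.245 FPKM in wild boar 1, 2 and 3, with the order of the chains within each breed. TAP2 and PSMB9 lay below the filter on low values, so their order over libraries is uncertain.

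Of 8 genes of T cell recognition and costimulation with a row, 2 passed the filter on low values and 0 were called (limma, with 0 at an unadjusted p under 0.05). CD86, a costimulatory ligand of antigen-presenting cells, stood at 1.38, 1.09 and 1.22 FPKM in Rongchang 1, 2 and 3 and at 1.14, 0.546 and 0.485 FPKM in wild boar 1, 2 and 3 (log2 fold change −0.39, limma adjusted p = 0.789). Its order in Rongchang differed from that of the class II chains. ICAM1, an adhesion ligand, stood at 2.45, 1.77 and 1.61 FPKM in Rongchang and 2.02, 2.48 and 2.13 FPKM in wild boar (log2 fold change 0.13, limma adjusted p = 0.881), with Rongchang 3 lowest and wild boar 2 highest. CD4, the co-receptor that binds class II, stood at 0.110 to 0.496 FPKM and was lowest in Rongchang 3, the library with the highest chains. It lay below the filter on low values, so its order over libraries is uncertain.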
